A study of Homo sapiens with 18 samples.

Results

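The 7 genes described here encode the proteins that move and control calcium in heart muscle cells: CACNA1C, RYR2, TRDN, ATP2A2, PLN, SLC8A1 and CAMK2D. A QKI peak was assigned to one of them when it overlapped, by at least 1 nt and on the same strand, the hg19 interval of that gene. With all other loci that held peaks, the 7 intervals make 10714 features, and 2060 of these had enough peaks to be tested, 6 of the 7 genes among them. The genes and intervals were chosen with earlier results of the same data known.

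The data are eCLIP peaks of QKI, an RNA-binding protein, from HUES6, an established line of human embryonic stem cells. In eCLIP, cells are crosslinked with ultraviolet light, the protein is immunoprecipitated (IP), and the RNA fragments bound to it are sequenced beside an input library of the same cells. The series compared 3 IP and 3 input libraries at each of 3 stages: pluripotent cells (day 0), cardiac progenitors (day 4) and cardiomyocytes collected once beating had been seen (day 8), 18 samples in all. Day 0 cells were kept in growth medium. Day 4 and day 8 cells had been started toward cardiomyocytes with BMP4 at 1.5 ng/mL and CHIR at 1.5 uM and then given C59, at 100 nM on its first addition. All libraries came from the 1 cell line and 1 anti-QKI antibody. Nothing in the labels ties the 3 libraries of 1 day to different cultures. The spread between them may be technical, and every p-value for a difference between days is set against only that spread.

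In a heart muscle cell, depolarisation opens L-type calcium channels in the surface membrane, and the calcium that enters opens release channels in the sarcoplasmic reticulum, the cell's calcium store. Contraction ends when calcium is pumped back into the store or exchanged out of the cell for sodium. QKI is known to bind RNA through a KH domain and to regulate alternative splicing and RNA stability, and it is expressed in muscle and in pluripotent cells.

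A listed cluster is any line of a library's list, and a passing peak is a cluster with at least 4-fold enrichment over input and p of at most 0.001 by the authors' own values. A cluster said to be below the threshold missed the fold limit, the p limit or both. Passing peaks numbered 12695 to 15508 per library at day 0, 3030 to 7775 at day 4 and 3726 to 10966 at day 8. Listed clusters numbered 102085 to 187962, 63319 to 99552 and 52462 to 62897. Because these totals differ, a gene is given by its number of peaks and by its share of the library's passing peaks. The lists hold no RNA levels. More QKI on each RNA, more RNA per cell and more cells that make the RNA cannot be told apart, and the labelled cell stages were not checked against marker genes.

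All 7 genes together held few QKI peaks at day 0 and day 4 and many at day 8. Their passing peaks numbered 26, 20 and 21 in the day 0 libraries, 2, 7 and 4 at day 4, and 107, 100 and 203 at day 8. Their share of a library's passing peaks was 0.162% ± 0.00518 (SD, n = 3) in the stem cells, 0.0854% ± 0.0175 in the progenitors and 2.08% ± 0.532 in the cardiomyocytes. The lowest day 8 library, at 1.69%, lay above the highest earlier one, at 0.168%. Over all listed clusters the sums were 458, 144 and 2703, so the day 8 excess was present without the threshold too. The 7 genes did not share 1 history: SLC8A1 had no passing peak before day 8, while RYR2, CAMK2D and ATP2A2 were already bound in the stem cells.

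**Figure D1:**
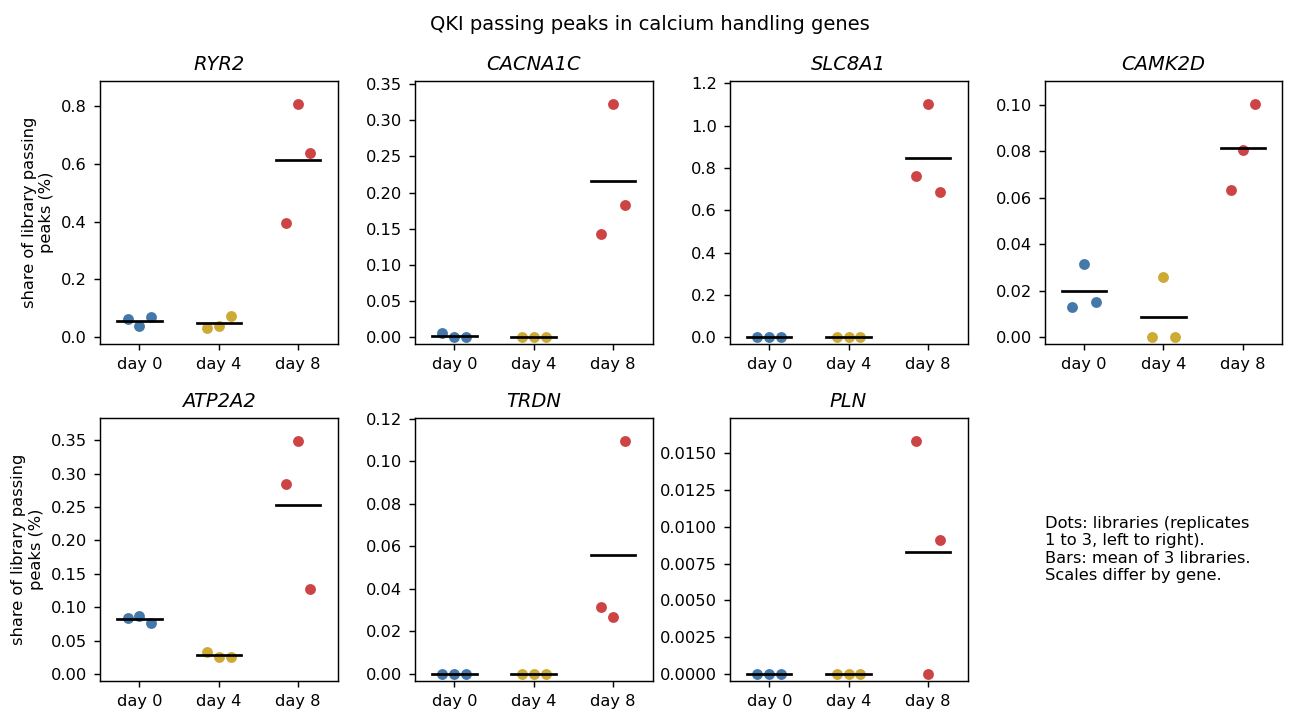
Share of each library's passing QKI peaks (percent, linear axis with its own scale per gene) that lay in each of the 7 calcium handling genes. Days 0, 4 and 8 are shown, with 1 point per library and 3 libraries per day. The day 8 points of SLC8A1 sit between 0.684% and 1.1004% with 0 passing peaks on the earlier days, while ATP2A2 is at 0.0765% to 0.0866% at day 0 and dips to 0.0250% to 0.0330% at day 4.

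Shares were compared with limma across all 2060 tested features, with Benjamini-Hochberg adjustment over all of them and a threshold of 0.05. The fit draws each feature's spread partly from the other features, here with 17.2 prior degrees of freedom. For day 8 against day 0, 14.9% of the features were called higher, and the 6 tested genes all were. For day 8 against day 4, 5.58% were called higher, again with the 6 tested genes among them. For day 4 against day 0, 13.8% were called higher and 8.25% lower, and none of the 3 genes that had more than 3 passing peaks on either day was called. The median log2 difference over all features was 0.05 for day 8 against day 0. How low numbers are scaled moved the split of calls: for day 8 against day 0, 307 features were called higher and 404 lower, and with a pseudocount scaled to each library's total, an alternative added after the data were seen, 172 and 407, with a median of -0.30. For day 4 against day 0 the split went from 285 and 170 (median 0.29) to 95 and 327 (-0.32), and for day 8 against day 4 from 115 and 97 (-0.48) to 128 and 52 (-0.08). A pseudocount of 2 gave 450 and 77, 863 and 22, and 32 and 22, and a covariate for each library's total of passing peaks 171 and 398, 75 and 257, and 131 and 60. CACNA1C, SLC8A1 and TRDN reached the minimum of 10 peaks only through day 8, so their calls were bound to show day 8 higher. RYR2, CAMK2D and ATP2A2 had 31, 10 and 38 peaks at day 0 and day 4 and were tested without needing day 8. The 9 libraries were also permuted in all 280 ways into 3 days, which tests the 3 days together and not pairs of days. The exact permutation test gave adjusted p-values of 0.0955 for ATP2A2 and 0.111 for the other 5 genes, so no gene was called. Before adjustment its p was 0.00357 for ATP2A2, 0.0107 for CAMK2D, 0.025 for RYR2 and 0.0357 for the other 3. The permutation test called 0 of the 2060 features after adjustment and 710 at an unadjusted p under 0.05. With limma's 3-day test, 788 were called after adjustment. The smallest possible permutation p is 0.00357. For SLC8A1 and TRDN, with 0 peaks on both earlier days, it is 0.0357.

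CACNA1C encodes the pore-forming subunit of the L-type channel through which calcium enters the cell (hg19 chr12:2079952-2807115, plus strand). It held 1, 0 and 0 passing peaks in the day 0 libraries, none in the 3 day 4 libraries, and 9, 12 and 20 at day 8. The day 8 libraries did not overlap the earlier ones. The single early peak was in day 0 replicate 1. At day 8 the gene held 0.216% ± 0.0943 (SD, n = 3) of passing peaks, and the ratio of its summed share to day 0 was 80.5, with an exact 95% interval of 13.7 to 3257 that covers counting error only. Against day 4, with 0 peaks, the summed share was 9.63-fold that of a floor of 3 peaks over the day. The exact 95% counting interval against day 4 began at 7.48. The adjusted p from limma was 1.91e-07 against day 0 and 2.30e-05 against day 4. CACNA1C entered this test only through its day 8 peaks.

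Listed clusters of CACNA1C were commoner than passing ones. They numbered 14, 31 and 14 at day 0, 0, 1 and 1 at day 4, and 152, 211 and 179 at day 8, when 7.59% ± 3.10 of them passed. Its region that passed in the most libraries spans chr12:2563478-2563562, 483.57 kb from the start of the gene. This site had log2 folds over input of 6.37, 3.88 and 5.27 in the day 8 libraries and of 4.49 in day 0 replicate 1. The region with the highest fold among those bound in 3 of 3 day 8 and 0 of 3 day 0 libraries was chr12:2598896-2598972, at 3.91, 4.31 and 7.04. Both sites also gave the only 2 peaks of this gene in the authors' reproducible list of day 8, at log2 folds of 5.17 and 5.18. Other such regions were chr12:2389914-2390009 and chr12:2743545-2743617.

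RYR2 encodes the ryanodine receptor, the calcium release channel of the cardiac sarcoplasmic reticulum (chr1:237205702-237997288, plus strand). Its passing peaks numbered 10, 5 and 9 at day 0, 1, 3 and 3 at day 4, and 25, 30 and 70 at day 8. Every day 8 library exceeded every earlier one. The share was 0.0576% ± 0.0159 (SD, n = 3) at day 0, 0.0489% ± 0.0228 at day 4 and 0.613% ± 0.206 at day 8. RYR2 rose by a log2 difference of 3.32 ± 0.41 (SE, limma adjusted p = 1.46e-06) from day 0 to day 8 and by 3.36 ± 0.41 (adjusted p = 1.05e-05) from day 4 to day 8. The ratios of summed shares were 10.2 (exact 95% counting interval 6.57 to 16.6) and 12.6 (5.93 to 31.9). Day 4 and day 0 differed by -0.04 ± 0.41 (adjusted p = 0.951), and their shares overlapped.

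Over all listed clusters, RYR2 fell by 1.21 on the log2 scale from day 0 to day 4 (limma adjusted p = 0.00226). Its clusters numbered 38, 79 and 90, then 7, 18 and 20, then 190, 244 and 302. With only the 3030 strongest passing peaks of each library, the day 4 shares were instead higher than day 0 by 1.55 (adjusted p = 0.0432). The direction between day 0 and day 4 thus depended on which peaks were counted.

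The 72 nt region chr1:237766453-237766524 of RYR2, 560.79 kb from the start of the gene, was the only 1 of the 233 bound regions of the 7 genes that passed in 9 of 9 libraries, as 544 regions of the series did. Its log2 folds were 4.41, 5.29 and 6.73 at day 0, 8.42, 6.01 and 6.69 at day 4, and 6.08, 4.20 and 5.39 at day 8. The ranges of day 0 and day 8 overlapped. The authors' reproducible lists held a peak there at day 0 (log2 fold 5.48) and at day 4 (7.28), and none at day 8, although all 3 day 8 libraries passed. It was the single peak of RYR2 in day 4 replicate 1, whose median log2 fold is therefore 8.42.

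A second RYR2 region, chr1:237889667-237889868, passed at day 0 and day 8 and not at day 4. Its log2 folds were 4.32, 4.40 and 5.21 at day 0 and 5.33, 4.55 and 6.33 at day 8. All 3 day 4 libraries listed a cluster there that did not pass. The strongest reproducible day 8 peak of the gene, chr1:237889800-237889862 at 5.50, lies inside it. Of the 3 regions bound in every day 8 library and no day 0 library, chr1:237231087-237231162 had the highest fold, at 3.65, 5.14 and 6.01. All 3 day 0 libraries listed a cluster there below the threshold. The other two were chr1:237686014-237686223 and chr1:237954195-237954331.

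TRDN encodes triadin, which anchors the release channel to calsequestrin in the store membrane (chr6:123537483-123958238, minus strand). It had 0 passing peaks in all 6 earlier libraries and 2, 1 and 12 at day 8. Replicate 3, the day 8 library with the most passing peaks, held 12 of the 15. The mean day 8 share was 0.0560% ± 0.0464 (SD, n = 3). The share summed over the day, 15 of 21012 passing peaks or 0.0714%, was at least 9.82-fold that of day 0 and at least 3.52-fold that of day 4, with the same floor of 3 peaks over a day. Without day 8 replicate 3 the sum was 3 peaks, which is the floor itself, so no bound could be given. The limma adjusted p was 2.02e-05 against day 0 and 0.0117 against day 4, and TRDN entered this test only through its day 8 peaks. Without day 8 replicate 3, TRDN also fell under the minimum of 10 peaks and was not tested. With a pseudocount of 2 the day 4 comparison missed the threshold (log2 difference 0.98, adjusted p = 0.334). No region of TRDN passed in 3 of 3 day 8 libraries. In 2 of 3, 3 regions passed, and the one with the highest mean fold, chr6:123845350-123845459, had log2 folds of 4.72 in replicate 1 and 4.14 in replicate 3. The others were chr6:123693449-123693553 (4.37 in replicate 1 and 4.39 in replicate 3) and chr6:123701950-123702097 (5.14 in replicate 2 and 3.49 in replicate 3). In each of the 3, the remaining day 8 library had a cluster below the threshold.

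ATP2A2 encodes SERCA2, the pump that returns calcium to the store (chr12:110719032-110788898, plus strand). It is made in many cell types. Its passing peaks numbered 13, 11 and 10 at day 0, 1, 2 and 1 at day 4, and 18, 13 and 14 at day 8. The day 4 libraries were the lowest, and the numbers of day 0 and day 8 met at 13. As shares the days did not overlap, at 0.0823% ± 0.00523 (SD, n = 3), 0.0279% ± 0.00442 and 0.254% ± 0.114. ATP2A2 rose from day 4 to day 8 by a log2 difference of 2.63 ± 0.43 (SE, limma adjusted p = 0.000238), a ratio of summed shares of 7.93 (exact 95% counting interval 2.89 to 30.3). It rose from day 0 to day 8 by 1.49 ± 0.43 (adjusted p = 0.00949), a ratio of 2.60 (1.63 to 4.19). The second call was lost with the library's total of passing peaks as a covariate (0.73, adjusted p = 0.129).

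Between day 0 and day 4 the log2 difference of ATP2A2 was -1.14 ± 0.43 (limma adjusted p = 0.0580), with a ratio of summed shares of 0.328 (0.0845 to 0.920). This comparison passed the threshold at 8-fold enrichment (-1.72, adjusted p = 0.00501), and without day 4 replicate 1, day 8 replicate 2 or day 8 replicate 3 (adjusted p 0.0332, 0.0367 and 0.0304). Without any other single library it missed the threshold (adjusted p 0.0644 to 0.146). It passed with the 3030 strongest passing peaks of each library (-1.50, adjusted p = 0.00742) and missed with a pseudocount of 2 (-0.42, adjusted p = 0.403). It did not hold over all listed clusters, which numbered 27, 42 and 46 at day 0, 19, 21 and 30 at day 4, and 35, 49 and 28 at day 8. The share of these clusters that passed was 32.0% ± 14.1 (SD, n = 3) at day 0, 6.04% ± 3.17 at day 4 and 42.7% ± 14.0 at day 8. Over all clusters of a library, 6.95% to 15.2% passed at day 0, 4.02% to 11.1% at day 4 and 6.09% to 17.4% at day 8.

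Peaks in ATP2A2 lay near the 3′ end of its interval. Its last 5 kb held 29 of 34 passing peaks (85.3%) at day 0, 4 of 4 at day 4 and 40 of 45 (88.9%) at day 8. The widest-shared region, chr12:110785451-110785719, passed in 7 libraries. Its log2 folds were 6.45, 4.07 and 5.21 at day 0, 5.63 in day 4 replicate 2 alone, and 6.42, 4.96 and 6.46 at day 8. The other two day 4 libraries listed a cluster there that did not pass. The strongest reproducible ATP2A2 peaks of day 0 (chr12:110785455-110785484, log2 fold 4.92) and day 8 (chr12:110785451-110785484, 6.02) fell in it.

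Within the same 5 kb, chr12:110784136-110784285 and chr12:110787649-110787911 passed in every day 0 and day 8 library and in none of day 4. The first had log2 folds of 3.27, 2.76 and 3.50 at day 0 and 3.45, 5.01 and 4.94 at day 8. The second had 4.58, 3.82 and 2.90, then 3.65, 3.22 and 3.73. Both kept clusters below the threshold in 3 of 3 day 4 libraries. One region of the stretch, chr12:110784651-110784716, was bound at day 8 only (5.17, 3.55 and 3.64) and lay over no earlier cluster, enriched or not, in 6 of 6 libraries.

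PLN encodes phospholamban, the small membrane protein that restrains SERCA2 until it is phosphorylated (chr6:118869442-118881586, plus strand). It had 2 passing peaks in the 9 libraries and was not tested. Both lay in chr6:118881005-118881110, 11.62 kb from the start of the gene, at log2 folds of 4.80 in day 8 replicate 1 and 6.57 in day 8 replicate 3. Day 8 replicate 2 also had a cluster in this region, and neither of its 2 clusters in the gene passed. No library of day 0 or day 4 listed a cluster on the strand of PLN. At this number of peaks no difference between days could be shown.

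SLC8A1 encodes the sodium-calcium exchanger NCX1, which carries calcium out of the cell (chr2:40339286-40739575, minus strand). It had 0 passing peaks in the 6 libraries of day 0 and day 4, and 48, 41 and 75 at day 8. Its listed clusters numbered 0, 0 and 1 at day 0, 1, 3 and 1 at day 4, and 323, 424 and 400 at day 8. Clusters of any fold were thus nearly lacking before day 8. The early ones were not all unenriched: log2 folds reached 2.71 in day 0 replicate 3 and 3.76 in day 4 replicate 3. Those clusters missed the limit on p. The mean day 8 share was 0.848% ± 0.222 (SD, n = 3). The share summed over the day, 0.781%, was at least 107-fold that of day 0 and at least 38.5-fold that of day 4. The limma adjusted p was 5.32e-11 against day 0 and 1.22e-08 against day 4, in a test that the gene entered only through its day 8 peaks. For day 4 against day 0 the same fit gave an adjusted p of 0.0248 with 0 passing peaks on both days. That difference is only the constant pseudocount of 0.5 over unequal library totals, and no difference between these days was measured.

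Binding of SLC8A1 at day 8 was spread along the gene. Cut into 4 equal parts from the 5′ end, its interval held 35, 48, 36 and 45 of the 164 passing peaks in turn. Its 85 bound regions included 25 that passed in 3 of 3 day 8 libraries. The 3 with the highest folds among them were chr2:40401568-40401827 (5.52, 4.27 and 6.30), chr2:40435226-40435321 (4.85, 5.10 and 6.17) and chr2:40397511-40397696 (5.92, 4.72 and 5.28), and none had a cluster in any earlier library. Single peaks were only moderately enriched: their median log2 fold was 3.31 ± 0.11 (SD, n = 3 libraries), against 3.91, 4.20 and 4.27 over all passing peaks of the day 8 libraries. In RYR2 the median at day 8 was 4.24 ± 0.25.

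**Figure D2:**
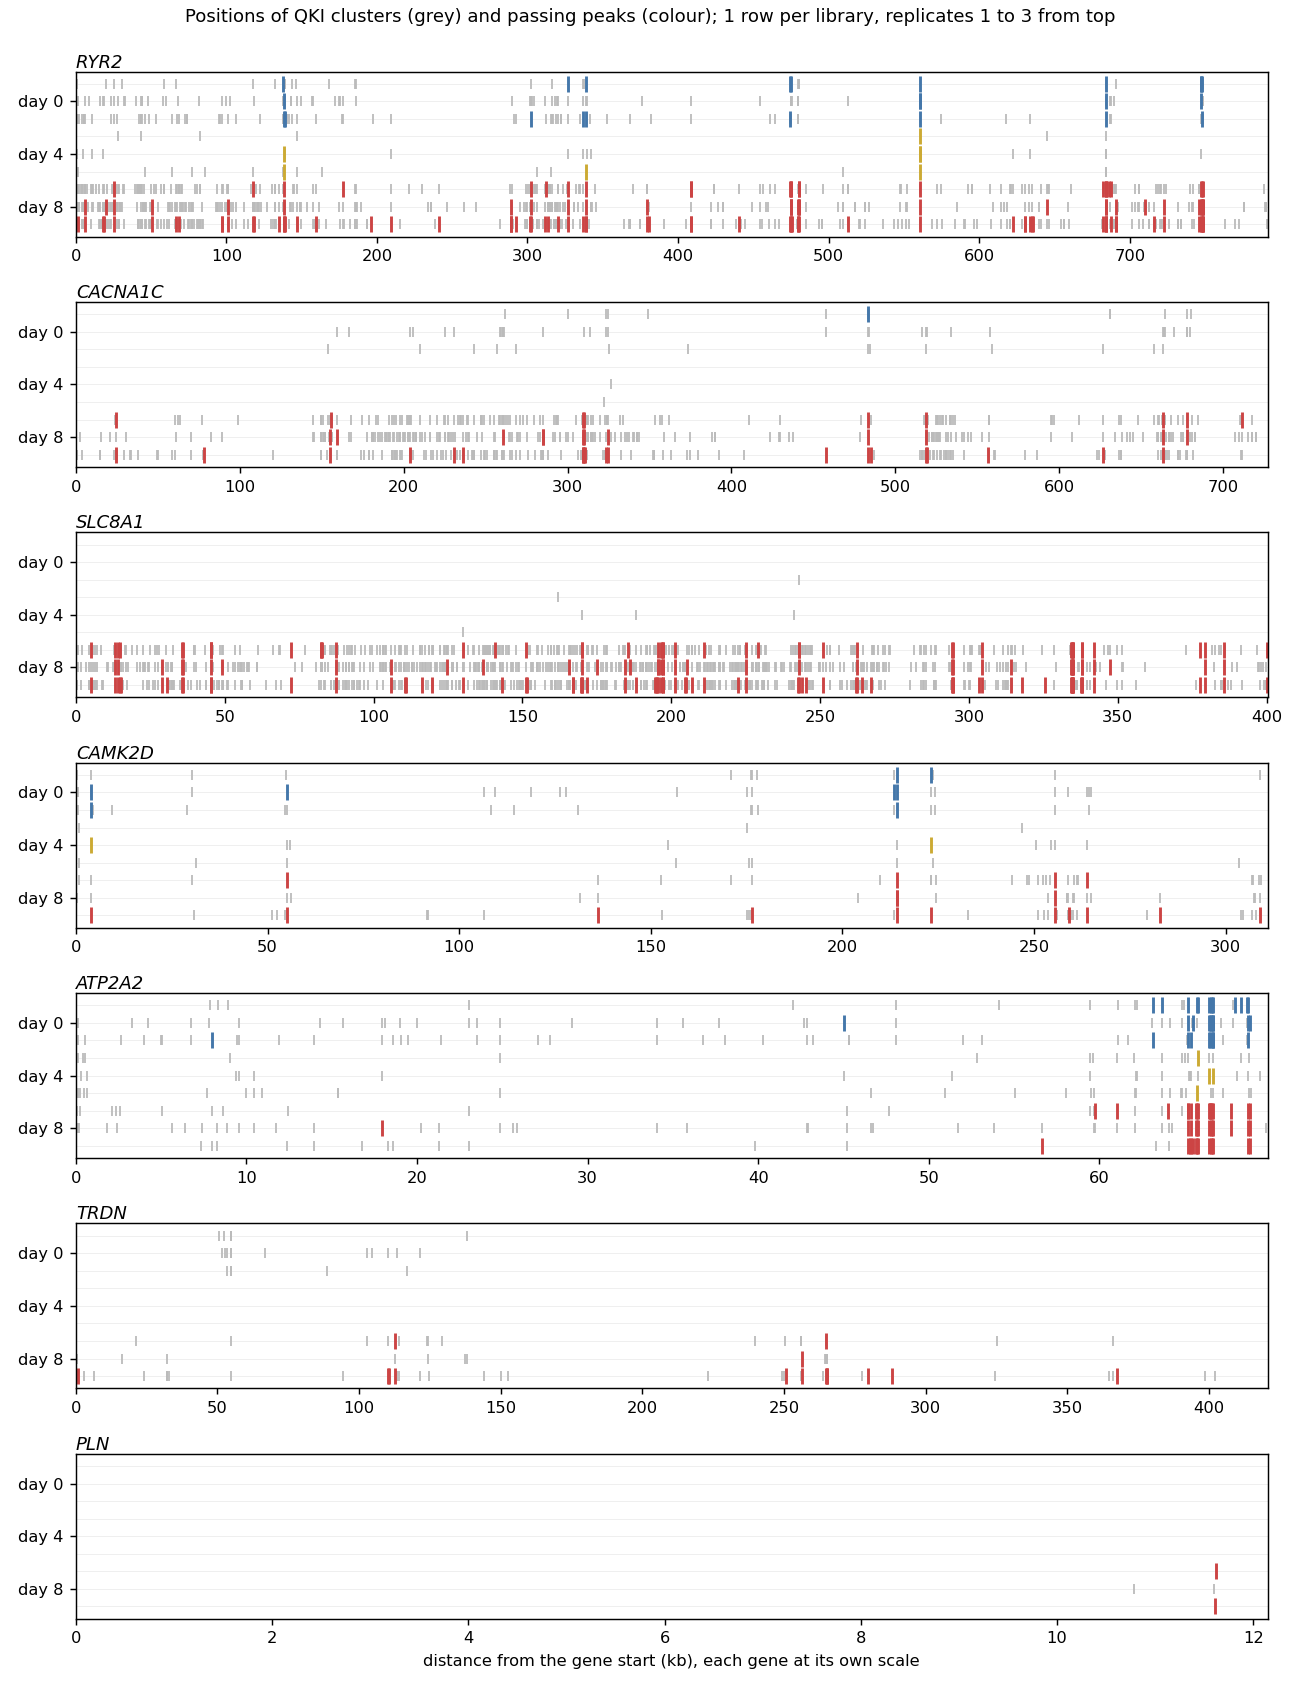
Position of QKI clusters along the 7 calcium handling genes, as distance from the gene start (kb), by day. Passing peaks are told apart from clusters below the threshold, and each of the 3 libraries of a day has its own row. SLC8A1 fills its whole length at day 8 and is nearly empty before, and most ATP2A2 peaks sit in the last 5 kb on all 3 days.

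CAMK2D encodes the delta form of calcium/calmodulin-dependent kinase II, which phosphorylates the release channel and phospholamban and is a known target of alternative splicing in the heart (chr4:114372188-114683083, minus strand). Its passing peaks numbered 2, 4 and 2 at day 0, 0, 2 and 0 at day 4, and 4, 3 and 11 at day 8. In numbers of peaks day 0 and day 8 overlapped. Their shares of 0.0199% ± 0.0101 (SD, n = 3) and 0.0814% ± 0.0185 did not. CAMK2D rose by a log2 difference of 2.00 ± 0.51 (SE, limma adjusted p = 0.00388) from day 0 to day 8, a ratio of summed shares of 4.42 (exact 95% counting interval 1.83 to 11.7). It rose by 2.24 ± 0.51 (adjusted p = 0.00523) from day 4, a ratio of 6.34 (1.52 to 56.4). Day 4 differed from day 0 by -0.24 ± 0.51 (adjusted p = 0.753). The day 0 call was lost with a pseudocount scaled to each library (1.81, adjusted p = 0.0782) and the day 4 call with a pseudocount of 2 (1.05, adjusted p = 0.159).

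The main site of CAMK2D, chr4:114468810-114468960, was bound in every library of day 0 and day 8 and in none of day 4. Its log2 folds were 6.18, 4.23 and 4.82 at day 0 and 4.91, 5.64 and 3.77 at day 8. These ranges overlapped. At day 4, 2 of 3 libraries listed a cluster there that did not pass. It carried the only reproducible peak of the gene, chr4:114468826-114468960 in the day 0 list at 5.08, and the day 8 list held none. A second region, chr4:114427666-114427804, passed at day 8 alone (3.33, 3.14 and 3.89), with clusters below the threshold in 3 of 3 day 0 libraries.

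**Figure D3:**
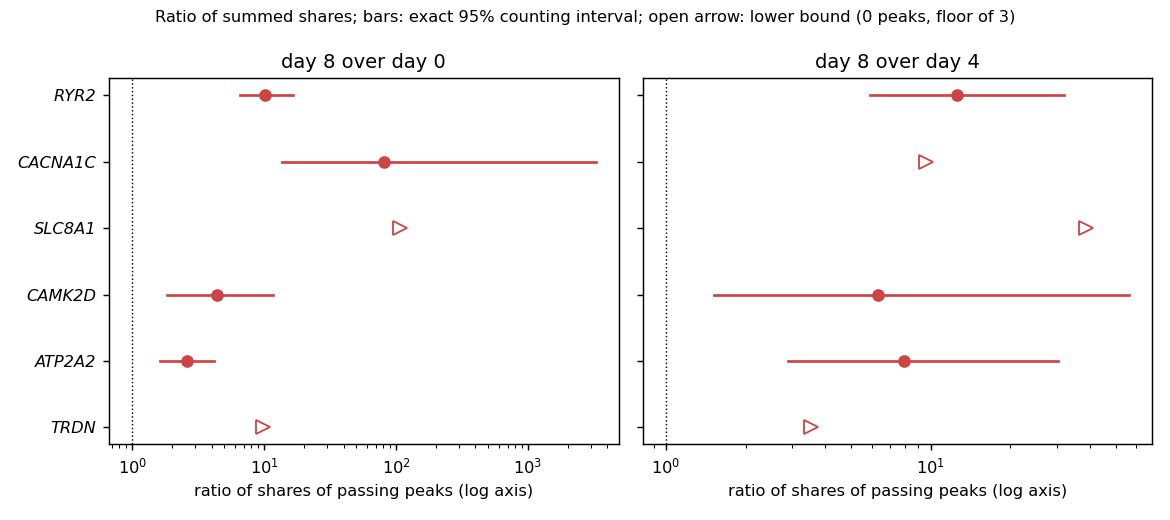
Ratio of each gene's summed share of passing peaks at day 8 to that at day 0 and at day 4 (log axis), with exact 95% counting intervals. Where the earlier day had no peak, an open arrow gives the ratio to a floor of 3 peaks, without an interval. The day 8 to day 0 ratio runs from 2.60 for ATP2A2 to 80.5 for CACNA1C and, against the floor, 107 for SLC8A1. The interval of CACNA1C is wide because day 0 had 1 peak.

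Longer genes can hold more peaks, so the genes were also set side by side per length, as passing peaks per 10000 of the library and 100 kb of gene. At day 8 ATP2A2 was at 36.3 ± 16.3 (SD, n = 3), SLC8A1 at 21.2 ± 5.54, RYR2 at 7.74 ± 2.60, PLN at 6.85 ± 6.54, CACNA1C at 2.97 ± 1.30, CAMK2D at 2.62 ± 0.596 and TRDN at 1.33 ± 1.102. The libraries of ATP2A2 and SLC8A1 overlapped on this scale, and those of SLC8A1 and RYR2 did not (17.1 to 27.5 against 4.997 to 10.2). RYR2, at 4.997 at its lowest, was above CACNA1C, at 4.43 at its highest. PLN, with 0 to 13.03, overlapped every neighbour, and CACNA1C, CAMK2D and TRDN overlapped each other. At day 0 the order was ATP2A2 at 11.8 ± 0.748, RYR2 at 0.727 ± 0.201, CAMK2D at 0.640 ± 0.326 and CACNA1C at 0.0296 ± 0.0512, with the other 3 at 0. RYR2 and CAMK2D overlapped there.

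Passing peaks of all 9 libraries merged into 29356 regions, 233 of them in the 7 genes. Of the 233, 33 were bound in 3 of 3 day 8 libraries and 0 of 3 day 0 libraries, beside 1.68% of all regions. SLC8A1 held 25 of these, RYR2 and CACNA1C 3 each, and CAMK2D and ATP2A2 1 each. Without day 8 replicate 2, the day 8 library with the fewest passing peaks, the number was 53. For day 8 and not day 4 it was 45, beside 1.78% of all regions. No region of the 7 genes was bound in every day 0 library and no day 8 library, beside 9.45% over the series. Those bound in every day 0 and no day 4 library numbered 4, beside 9.11%, and lay in ATP2A2 (2), RYR2 and CAMK2D, with 7 when day 0 replicate 2 was left out. Both shares rest on unlike bases: only 6 of the 233 regions passed in every day 0 library, beside 5954 of the 29356. Of these, 0 of the 6 and 2773 of the 5954 passed in no day 8 library. For day 4 it was 4 of the 6 and 2675 of the 5954. Of the 233 regions, 141 (60.5%) passed in 1 library only, beside 52.3% of all regions.

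The genes differed in what lay under their day 8 regions on the earlier days. Of the 25 SLC8A1 regions that passed in 3 of 3 day 8 libraries, 23 lay over no listed cluster in the 6 earlier libraries and 2 had a cluster below the threshold. In RYR2, 9 of 12 had already passed in an earlier library, and the other 3 had an earlier cluster. In ATP2A2, 5 of 6 had passed earlier. CACNA1C stood between, with 1 of 4 passing earlier and 3 with a cluster only, and CAMK2D had 1 of each. Over the whole series, 1515 of 1832 such regions had passed earlier, 162 had a cluster only and 155 (8.46%) had no earlier cluster. Earlier passing was thus the common case in the series and not particular to RYR2 and ATP2A2.

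**Figure D4:**
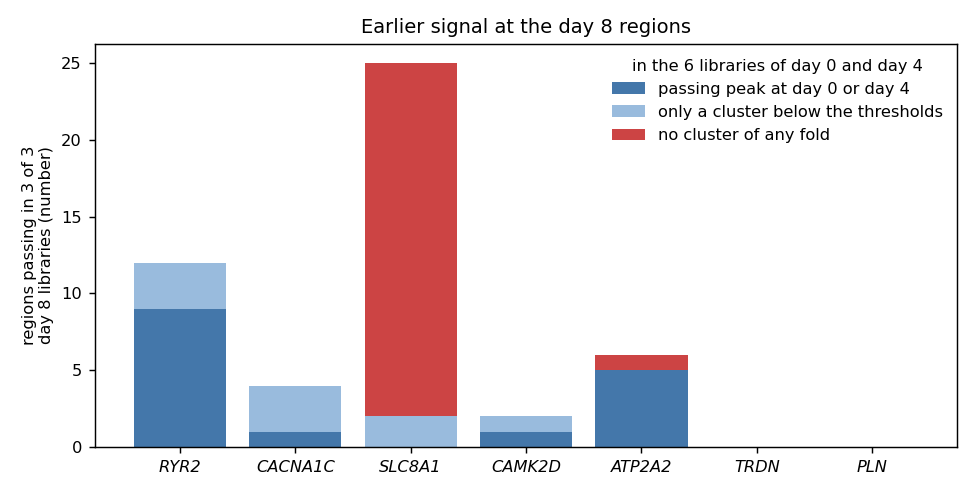
Regions that passed in all 3 day 8 libraries, by gene, split into those that had passed in an earlier library, those with only a cluster below the threshold, and those with no earlier cluster (number of regions). SLC8A1 has 23 of 25 regions in the last class, while 9 of 12 in RYR2 and 5 of 6 in ATP2A2 had passed before. Over the series, which is not drawn, 1515 of 1832 such regions had passed before.

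The authors' reproducible lists pool the 3 libraries of a day, so they carry no error between libraries. They held 11 peaks in the 7 genes at day 0 (0.141% of 7778), 2 at day 4 (0.211% of 947) and 44 at day 8 (2.79% of 1576). By gene, SLC8A1 had 0, 0 and 21, ATP2A2 7, 0 and 14, RYR2 3, 2 and 7, CACNA1C 0, 0 and 2, and CAMK2D 1, 0 and 0, with none in TRDN or PLN. Some of these peaks abut, so they are not all separate sites. With abutting peaks joined, ATP2A2 had 5 footprints at day 0 and 10 at day 8. SLC8A1 then had 18 at day 8 and RYR2 had 1 at day 4. The overlaps below count peaks, not footprints. At day 8, 13 of the 44 shared at least 1 nt with the day 0 list, 9 of them in ATP2A2 and 4 in RYR2, beside 1020 of all 1576 (64.7%). In the other direction, 9 of the 11 peaks of the stem cells met one of the cardiomyocytes, beside 1326 of all 7778 (17.0%). At a reciprocal overlap of 50%, 6 of the 44 did so, beside 816 of the 1576 (51.8%). Of the 44, 20 had no listed cluster under them on the earlier days, 19 in SLC8A1 and 1 in ATP2A2, beside 104 of all 1576 (6.60%). All 44 coincided with passing peaks in 3 of 3 day 8 libraries.

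Across the 9 libraries the log2 shares of the genes were compared by Pearson's r, as a description that rests on 3 days and on shared library totals. SLC8A1 and TRDN had 0 passing peaks and CACNA1C had 1 in the 6 earlier libraries, so most of their points are the pseudocount over the library total. High values of r among them, and with loci nearly empty before day 8, follow largely from that and are no further evidence. CACNA1C and SLC8A1 were most alike (r = 0.981). TRDN was nearest to SLC8A1 (0.934), RYR2 to CACNA1C (0.953), CAMK2D to SLC8A1 (0.848) and ATP2A2 to RYR2 (0.823). Among the other tested loci, the one most like ATP2A2 was chr3:195590730-195592627 on the minus strand (r = 0.975), with 4, 4 and 4, then 0, 0 and 0, then 5, 5 and 6 peaks. The one most like RYR2 was chr10:68744101-68896720, minus strand (0.964), with 8, 5 and 11, then 1, 6 and 3, then 16, 12 and 34. The one most like SLC8A1 was chr2:33468404-33542192, plus strand (0.994), with 0 in the 6 earlier libraries and 11, 7 and 13 at day 8. Loci nearest to CACNA1C (chr2:213237783-213267215, minus strand, 0.991), CAMK2D (chr15:37009813-37047544, plus strand, 0.975) and TRDN (chr6:46364308-46418091, minus strand, 0.9996) likewise had their highest single count at day 8.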

How the data were processed

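The 9 IP libraries (3 per day) were analysed, and the 9 input samples enter only through the authors' enrichment values. Each library's list holds input-normalized clusters on hg19, and each day has a merged list of peaks past 4-fold enrichment and a 3-way IDR comparison, per the file headers. Cutadapt, STAR and SAMtools were used, per the submitters' processing notes; the peak caller and duplicate handling are not given in the sources used here. Per peak, the authors deposited a log2 fold of IP over input and a −log10 p-value of it, capped at 400. The authors' deposited score column was not used. Read depth per library is unknown, and the number of listed clusters is given in its place. Intervals cover counting error only.

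Passing peaks were counted per gene, strand and library. Outside the 7 genes, passing peaks of any library within 20 kb on one strand were joined into loci. Features with at least 10 passing peaks over 9 libraries were tested on log2 of (peaks + 0.5) over (passing peaks of the library + 1) × 10000, with limma 3.58.1 in R 4.3.3 (lmFit over all 9 libraries, eBayes with a variance trend) and Benjamini-Hochberg adjustment at 0.05; the script was tested on simulated data. Counts and figures used Python 3.11.15.

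Members, gene lists, tests and the naming rule were chosen with earlier results of these data known. The rule named, per gene, the top reproducible peak of a day, the region passing in the most libraries, and up to 3 regions per pair of days bound in 3 of 3 and 0 of 3 libraries. No hg19 genome or gene models were used here, so exons, introns, sequences, further calcium genes and cell type markers were not analysed here. Replicate numbers were not used as pairs in the main fit. Of the same-numbered correlations, 3 of 9 were over 0.1, which cannot settle whether the libraries are paired. Alternatives were other thresholds, counting units, pseudocounts, filters, joins, a covariate, a replicate block, leaving out each library, and an exact permutation test. A pseudocount scaled to the library was added after seeing the data.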

Additional observations from a re-analysis of the deposited data

Results flagged for a closer look

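Clusters on the strand opposite to a gene belong to none of the comparisons. Of the 7 genes, 5 had 0 such clusters, and 2 had some.

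CACNA1C had 38 clusters on the opposite strand, against 603 on its own. They numbered 4, 10 and 12 at day 0, 1, 0 and 1 at day 4, and 2, 7 and 1 at day 8, so most came from day 0, when the gene's own strand had few. Of these, 4 passed, 1 each in day 0 replicates 1 and 2 and day 8 replicates 1 and 3. RefSeq's table (GRCh38.p14, used for names only) lists DCP1B, a decapping co-factor, and the antisense RNAs CACNA1C-AS1, CACNA1C-AS2 and CACNA1C-AS4 on that strand. Which of them the clusters lie in was not tested.

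PLN had 13 clusters on the opposite strand, against 4 on its own. They were 2 in day 0 replicate 2, 9 in day 0 replicate 3 and 2 in day 8 replicate 3, and 0 passed. The same table lists CEP85L on that strand.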

How the results depend on the processing

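The comparisons of day 8 with day 0 and day 4 kept their direction for RYR2, CAMK2D and ATP2A2 under every alternative that could be fitted. CACNA1C, SLC8A1 and TRDN kept it too, but had 1, 0 and 0 passing peaks before day 8. With passing peaks their direction could not have changed. Over all listed clusters it could have: CACNA1C had 59 clusters at day 0 and 542 at day 8, and TRDN 21 and 70. Over the single-gene results, 403 values under alternatives kept direction and side of the threshold, 9 passed it newly, 10 lost it and 12 reversed. The 403 overstate robustness, since many could not have changed direction. Some are tests of all days together, which have no direction, and some are the fixed directions of CACNA1C, SLC8A1 and TRDN. Counting only peaks wholly inside the interval changed no value. Other minimum numbers of peaks, another join distance, a replicate block or omitting a library of an uncompared day left log2 differences unchanged. All reversals concerned day 4 against day 0. RYR2 gave 0.12 at 8-fold enrichment, 1.55 with an equal number of peaks, 0.38 with a pseudocount of 2, and from -0.34 to 0.14 when each library was left out. CAMK2D gave 0.73 with a pseudocount of 2, 0.33 with the library's total of passing peaks as covariate, and from -0.63 to 0.10 without each library. ATP2A2 gave 0.29 over all listed clusters, and was called at -1.50 with an equal number of peaks, -1.39 with a scaled pseudocount and -2.23 with the covariate. The cause was not tested.

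Of RYR2, CAMK2D and ATP2A2, 0 were called between day 4 and day 0 in the main setting; the pseudocount call of SLC8A1 is left out here. The number was 1 at 8-fold, over all clusters, with a minimum of 20 peaks, with a scaled pseudocount and with the covariate, 2 with an equal number of peaks, and 0 to 1 without each library. Features called for day 8 against day 0, 711, became 282 with an equal number of peaks, 280 with a minimum of 20, where fewer features are tested, and 422 to 779 without each library. For day 4 against day 0, 455 became 200 with an equal number, 807 with a minimum of 5, 186 with 20, 885 with a pseudocount of 2, and 203 to 480. For day 8 against day 4, 212 became 132, 125 with a minimum of 20, 54 with a pseudocount of 2, and 140 to 209. Regions of the genes bound at day 0 and not at day 4, 4, became 2 at 8-fold, and 4 to 7 without each library. Those bound at day 8 and not day 0, 33, became 24 at 8-fold and 33 to 53 without each library, and those bound at day 8 and not day 4, 45, became 34 and 45 to 65. The overlap of day 8 with day 0 reproducible peaks, 13, became 6 at a reciprocal 50%.

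A replicate block changed no call of the 7 genes (717, 458 and 222 features called). Deviations of same-numbered libraries from their day means correlated from -0.148 to 0.312. With 3 libraries per day, these values cannot tell whether libraries of the same number share a culture or batch. TRDN and CAMK2D had too few peaks to be tested with an equal number of peaks, and TRDN with a minimum of 20.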

Other observations

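Listed clusters, passing or not, were unevenly placed along CACNA1C and TRDN. The stretches described were chosen after the positions were seen and are not tested. In CACNA1C, 293 of the 542 day 8 clusters (54.1%) lay 150 to 350 kb from the gene start, a stretch that makes up 27.5% of the gene. The 3 day 8 libraries gave 55.3%, 56.4% and 50.3%. The same stretch held 27 of the 59 clusters of day 0 (45.8%), none of which passed, and 21 of the 41 passing peaks of day 8.

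TRDN had no passing peak at day 0, yet the day 0 libraries listed 5, 11 and 5 clusters in it. All 21 lay 50 to 140 kb from the gene start, 21.4% of its length. At day 4 no cluster was listed in TRDN. At day 8 the stretch held 21 of 70 clusters (30.0%), and 22 others lay 240 to 290 kb from the start, 11.9% of the length, with 9 of the 15 passing peaks.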
